A study of Ictidomys tridecemlineatus with 15 samples.

Results

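Nascent transcription in the liver of hibernating 13-lined ground squirrels was searched for units that were transcribed highest during interbout arousal (IBA), the short rewarming that interrupts torpor. Of the 4705 units of the deposited table that carry a single gene name, 146 had a higher value in each of the 3 IBA libraries than in any of the 11 libraries of the other 4 states and a mean in IBA at least 0.7 above the mean of the other 4 state means. Values for this choice were log2(CPM + 1), where CPM is the count of a unit divided by the total of the library and multiplied by 1000000. These units were chosen by their measured IBA values, so that their height in IBA is described here and was not tested, and the tests on them compare the other states with each other. For genes of the lists below that are not among the 146, IBA was tested against the mean of the other states. That test used the same IBA values that kept them out. The lists were chosen with earlier results of these data known, so that counts over them are descriptions. Background shares beside these counts include the 146 units, chosen as high in IBA. For calls higher in IBA they therefore lie above the share of the other units. All livers came from laboratory-housed female animals of a university breeding colony, with no genetic alteration or drug named in the labels, and the labels give no age. The states were summer active (SA, 3 libraries, homeothermic animals before hibernation), IBA (3), entrance into torpor (Ent, 3), early torpor (ET, 3) and late torpor (LT, 2), assigned from body temperature and time. Each library came from a different animal, so that replicates are animals. The IBA animals were taken soon after rewarming, and therefore stand for an early part of the arousal.

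GRO-seq (global run-on sequencing) labels the transcripts that polymerases in isolated nuclei had begun, here in a run-on of 7 min. It reads transcription in progress and not the RNA that has accumulated. Every value here is relative to the other units of its library, so that a change of total transcription between states is not seen. The paper states that its library-size scaling hides such changes. An unchanged median over all units therefore does not mean unchanged total transcription. In a hibernator, body temperature and metabolic rate fall together on entrance into torpor, stay low for days, and return for each arousal, when the liver again makes plasma proteins, glucose and lipid products. Most liver transcription comes from hepatocytes, which secrete transport and clotting proteins, oxidize fatty acids, and clear drugs and steroids through cytochrome P450 and glucuronosyl transferase enzymes. Whole liver was used, and fewer cells of a type and less nascent RNA per cell cannot be told apart.

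The libraries held 3713883 to 8884763 counts, with 3734769 to 6366886 in IBA, and no 2 libraries of a state agreed within sampling noise (chi-square of at least 14.8 per unit). Pearson's r of log2(CPM + 1) between libraries of a state ranged from 0.90 for SA 1 and SA 2 to 0.98 for IBA 1 and IBA 3. Of 15 hepatocyte markers, 7 had a unit of their own, none was among the 146, and their summed level ran from 11338 to 21509 CPM in SA, 10834 to 13362 in IBA, 8513 to 10231 in Ent, 3622 to 5953 in ET and 4673 to 6908 in LT. Liver endothelial markers (5 of 11 with a unit) summed to 222 to 275 CPM in SA, 242 to 283 in IBA, 260.0 to 282 in Ent, 161 to 238 in ET and 157 to 183 in LT. The stellate cell list had a single unit (41.5 to 68.0 CPM in SA and 45.9 to 62.9 in IBA). This unit stood at 40.5 to 59.4 CPM in Ent, 35.3 to 56.5 in ET and 40.2 to 41.6 in LT. The cholangiocyte list had 2 units, which summed to 86.0 to 105 CPM in SA and 114 to 146 in IBA. Their sum was 125 to 154 CPM in Ent, 107 to 134 in ET and 93.7 to 108 in LT. The 13 Kupffer cell and macrophage and 13 lymphocyte, neutrophil and erythroid markers had no unit of their own. The part of the cell mixture in the results below was not tested.

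The excess of the IBA mean over the mean of the other 4 state means ran from 0.71 to 3.08 on the log2 scale, with a median of 1.19, and it was 1 or more in 93 units and 2 or more in 15. The lowest IBA library lay above the highest other library by a median of only 0.20 log2 units, and by less than 0.1 in 48 of the 146, so that many of the units were set apart from SA or Ent by a narrow margin. By itself the absence of overlap held for 233 single-gene units (4.95% of 4705), and the rule as a whole kept 3.1%. Under the same limits 137 single-gene units were highest in SA, 148 in ET, 104 in LT and 30 in Ent, and 114 were lowest in IBA. The margin was smallest against SA, where the IBA mean exceeded the SA mean by a median of 0.70 log2 units over the 146, then Ent (0.82), LT (1.44) and ET (1.54). IBA means of the units ran from 30.7 to 1546 CPM with a median of 129.5, and the lowest count of any of them in an IBA library was 107 reads. All 146 entered the fits, and 145 had at least 10 reads in every library. Between the IBA animals the highest library exceeded the lowest by a median of 1.21-fold, and by 3.19-fold at most (Fam159a). IBA replicate 1 was the highest IBA library for 72 units, replicate 2 for 39 and replicate 3 for 35. In the heat map the IBA columns lie above all others in the 146 units. In most rows SA and Ent lie between IBA and the torpid states.

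**Figure D1:**
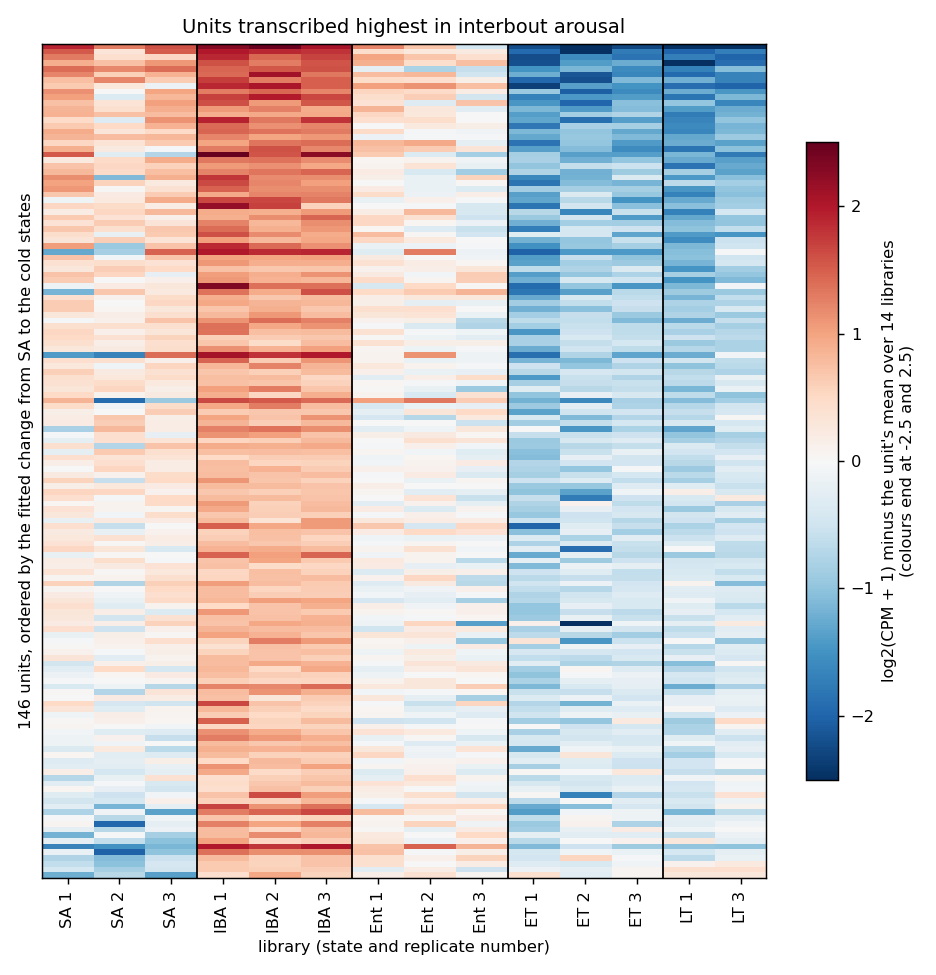
Transcription of the 146 units (rows) in 14 libraries (columns), as log2(CPM + 1) minus the mean of the row, with rows ordered by the fitted change from SA to the mean of ET and LT. The 3 IBA columns are the highest in each row because the rule chose them so, and the ET and LT columns are the lowest in most rows of the upper part.

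How the 146 units behaved among the states that the rule did not raise was asked with 4 contrasts, fitted in edgeR over all 6324 units with p-values adjusted over all of them and called at 0.05 or less. From SA to the cold states (the mean of ET and LT), 110 of the 146 fell and 3 rose, where 30.6% of all single-gene units were called lower and 26.9% higher. The median change was -0.98 on the log2 scale over the 146 and -0.06 over all single-gene units. From Ent to ET, 83 fell and none rose in edgeR (none was higher at an unadjusted p under 0.05 or in DESeq2), against 13.8% lower and 15.4% higher of all single-gene units, with medians of -0.75 and -0.02, and 144 of 146 estimates were below 0. From SA to Ent, 20 fell and 7 rose, against 12.6% and 12.1% of all single-gene units, with medians of -0.26 and -0.01, so that the share that fell was near the background. From ET to LT none of the 146 was called in edgeR in either direction (10 had an unadjusted p under 0.05, and DESeq2 called 1 lower, Gamt), with 0.34% of all single-gene units lower and 0% higher, and the medians were 0.05 and -0.02. A unit that is low in the cold states reaches the 0.7 limit more easily, and the absence of overlap caps the other libraries, so that neither the counts for SA against cold nor those for Ent against ET, nor any other of the 4 contrasts, are free of the rule, and the background shares are given as a description. Hepatocyte markers moved in the same direction, with 6 of 7 called lower in the cold states (median -2.20) and 3 of 7 from Ent to ET (median -1.09). Liver endothelial markers did as well, with 3 of 5 called lower in the cold states (median -0.87) and 1 from Ent to ET (median -0.48), and the part of both lists in these counts was not tested.

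Scaling to column sums in place of TMM moved the median of all single-gene units from SA to cold by 0.14 log2 units, and relative to all units the median of the 146 was -0.92 by TMM and -0.88 by column sums. No called unit changed sign between both scalings in any of the 4 contrasts. For SA to Ent, upper-quartile normalization gave 12 lower and 8 higher, a split other than the 20 and 7 by TMM, and a fit without the IBA libraries gave 10 lower and 4 higher. Leaving out 1 library gave 11 lower without SA 1, 11 without SA 3, 9 without Ent 2 and 8 without Ent 3, and 4 higher without Ent 1 or without Ent 3, so that the SA to Ent calls rest on few animals. At an adjusted p of 0.001, 65 fell and 1 rose from SA to cold (15% and 13.1% of all single-gene units), 12 fell from Ent to ET (1.17%, and 1.13% higher) and 1 fell and 1 rose from SA to Ent (0.531% and 0.361%). DESeq2 at 0.05 called 114 lower and 3 higher from SA to cold (31.4% and 29% of all), 95 lower from Ent to ET (16.6%, and 18.4% higher), 23 lower and 8 higher from SA to Ent (15.7% and 15%), and 1 lower from ET to LT (1.7%, and 0.383% higher). The 3 calls higher in the cold states became 5 without SA 1. With season as a covariate, which allows SA to be set against LT only, named units that lost their call from SA to cold included CYP2C8 (adjusted p = 0.28), Erlin1 (0.32), Pid1 (0.067), Glcci1 (0.069), Tf (0.05), Pde8b (0.082), LOC110598791 (0.052), Deptor (0.2), Mylk (0.49), Gnai1 (0.057) and Ust (0.58). All ET animals were collected in a season that no other state shares, so that ET and its season cannot be told apart, while the IBA animals shared their season with 2 SA animals and 1 Ent animal. The IBA mean lay above those 2 SA animals by a median of 0.76 log2 units over the 146 and above the SA animal of another season by 0.60, and for Ent the medians were 0.96 and 0.79.

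**Figure D2:**
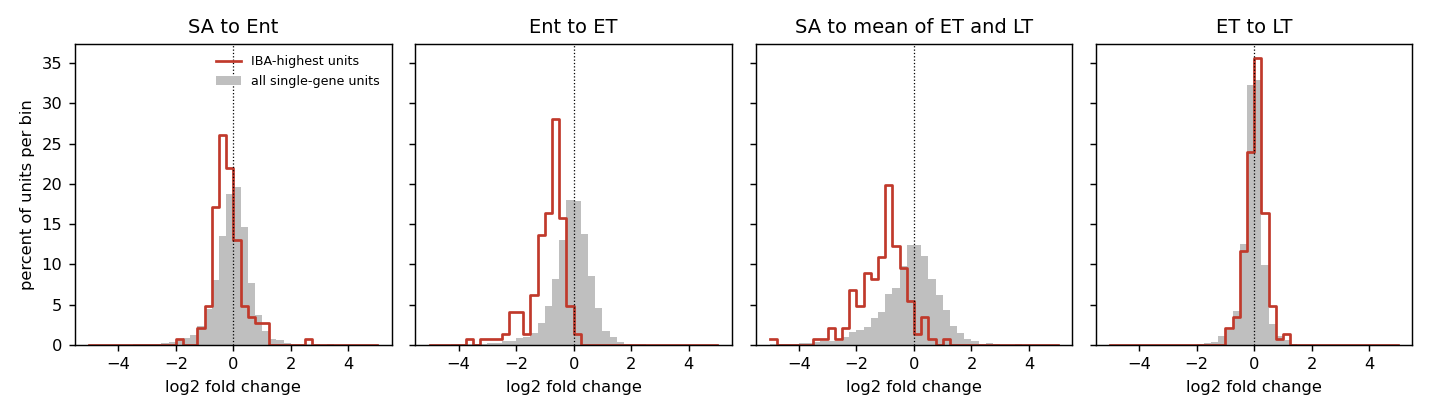
Fitted log2 fold changes between states that the rule did not single out, as the percent of units in each bin of 0.25, for the 146 IBA-highest units (red line) and all 4705 single-gene units (grey bars). The red line lies left of the grey bars from Ent to ET (median -0.75) and from SA to the mean of ET and LT (median -0.98) and covers the bars from ET to LT.

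The calls of the 4 contrasts together gave a few patterns across the states. The most frequent, with 60 units, had no call from SA to Ent and fell from Ent to ET and from SA to cold, and 14 units fell in all of these contrasts. A further 30 were called from SA to cold alone, and 22 in none of the 4. SA was the highest of the 4 other states by its mean for 97 units (66.4%, against 31.6% of all single-gene units) and Ent for 46 (31.5% against 19.1%), while LT was for 2 and ET for 1. State means descended from SA through Ent to both cold states in 90 units (61.6%, against 21.6% of all). In 11 units SA was instead the lowest of all states (7.53% of the 146). SA was the lowest of the 4 non-IBA states in 41.1% of all single-gene units. The rule favours units that are low in the cold states, so that these orders of states are not free of it and are a description.

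Serpina7 encodes thyroxine-binding globulin, the main carrier of thyroid hormone in plasma, and had the largest excess among units with a gene symbol (2.84 log2 units, chr10:79081977-79089270, minus strand, HiC_Itri_2). Serpina7 stood at 210.5, 96.6 and 156 CPM in the IBA livers, against 93.2, 25.6 and 18.7 in SA, 50.4, 24.7 and 17.1 in Ent, 17.4, 11.8 and 11.7 in ET and 13.8 and 8.63 in LT. The lowest IBA liver stood only just above SA replicate 1, and the other SA livers were near the Ent level. From SA to cold Serpina7 changed by -2.01 (SE 0.52, edgeR adjusted p = 0.0053), a call lost without SA replicate 1 (log2 -0.93, adjusted p = 0.085). A second unit that holds the Serpina7 name merged with 2 unnamed units lies on the same chromosome and strand, from 78985507 to 79072273, and met the same limits, with state means of 560.1 CPM in IBA and 185 in SA.

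The plasma carrier and acute-phase list had 13 of 33 genes with a unit of their own, of which Serpina7, Tf and Itih2 were among the 146. Tf, transferrin, carries iron in plasma. Tf had 601, 541 and 481 CPM in IBA, while SA gave 260.0, 329.8 and 304, Ent 366, 370.2 and 264, ET 189, 183 and 161 and LT 204 and 252. In this unit IBA was apart from every other liver, SA and Ent overlapped, and ET and LT were lowest. Tf fell from Ent to ET (log2 change -0.95, SE 0.16, edgeR adjusted p = 0.0015), and from SA to cold (log2 change -0.69, SE 0.14, edgeR adjusted p = 0.0012). Itih2, a heavy chain of the inter-alpha-trypsin inhibitor that binds hyaluronan, was at 286 ± 25.2 CPM in IBA (SD, n = 3) and 216 ± 24.3 in SA (SD, n = 3), and its change from SA to cold was -0.83 (SE 0.14, edgeR adjusted p = 0.00026). A unit that joins TF with Srprb lies beside the Tf unit (chr7:70096133-70138601, plus strand), on the plus strand of chromosome 7 from 70157853 to 70207134. This merged unit averaged 6917 CPM in IBA and 3859 in SA and also met the limits. Unlike in the Tf unit, its SA livers (3771, 4113 and 3692 CPM) and Ent livers (2167, 1843 and 1532) did not overlap. Which gene gave the counts of the merged unit was not tested, so that the Tf unit may not stand for the whole gene. Over the list, 6 of the 10 listed genes outside the 146 were called higher in IBA than in the mean of the other states and 1 lower, with a median of 1.16, where 23.9% of all single-gene units were called higher and 21.1% lower with a median of 0.04 (6.84% and 5.16% at an adjusted p of 0.001). Hepatocyte markers moved alike in this contrast, with 5 of 7 called higher in IBA and a median of 1.14, and their part was not tested. A2m, alpha-2-macroglobulin, a broad protease inhibitor of plasma, had the largest difference of these, as A2m averaged 2855 ± 2239.7 CPM in IBA and 803 ± 579 in SA, 748 in Ent, 360.4 in ET and 449 in LT (IBA against the mean of the other states, log2 2.44, SE 0.39, edgeR adjusted p = 0.00044). A2m stayed outside the 146 because its lowest IBA liver, at 1390.2 CPM, was below the highest other liver, at 1466 CPM. AFM, the vitamin E carrier afamin, was called higher in IBA as well, although its SA mean was above its IBA mean (42.8 and 34.4 CPM).

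Cytochrome P450 enzymes of the CYP2C family oxidize drugs and fatty acids in the endoplasmic reticulum, and some of the 146 units came from a run of CYP2C units on chromosome 1. The 3 described here, CYP2C18_like_gene16223, CYP2C8 and CYP2C18_like_gene16228, lay on the minus strand between positions 38675803 and 38979666. CYP2C8 stood at 96.4, 49.8 and 50.3 CPM in the IBA livers, against 17.1, 21.8 and 23.0 in SA, 13.9, 26.6 and 19.0 in Ent, 4.15, 9.13 and 6.17 in ET and 7.98 and 17.7 in LT. Every IBA liver was above all others for CYP2C8, and SA and Ent overlapped. CYP2C8 fell from Ent to ET (log2 change -1.67, SE 0.39, edgeR adjusted p = 0.0076). CYP2C18_like_gene16223 read 58.6, 49.3 and 417 CPM in SA, 669.9, 560.0 and 639 in IBA, 169, 348 and 145 in Ent, 42.0, 93.2 and 63.3 in ET and 66.1 and 152 in LT. SA replicate 3 and Ent replicate 2 stood above the other livers of their states for it. The change of CYP2C18_like_gene16223 from SA to cold was -1.21 (SE 0.59, edgeR adjusted p = 0.099), and it was called in none of the 4 contrasts with all libraries. Without SA replicate 3 it rose from SA to Ent (1.93, adjusted p = 0.015), and without any single SA library its fall from Ent to ET was called (adjusted p = 0.0051 to 0.048). CYP2C18_like_gene16228, the last unit of the run, was named after its values were seen. It averaged 371 ± 86.7 CPM in IBA and 229.9 ± 60.8 in SA (SD, n = 3 each) and fell from SA to cold (log2 change -1.83, SE 0.21, edgeR adjusted p = 1.8e-05). Within the same run CYP2C19, also named after its values were seen, lies outside that span, on the plus strand from 38622412 to 38657482. CYP2C19 was highest in SA, with 402 CPM against 48.7 in IBA. The units of the run thus did not move as one. Only uniquely aligned reads were counted, and near-identical CYP2C copies may share reads, so that the values of single copies are uncertain.

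**Figure D3:**
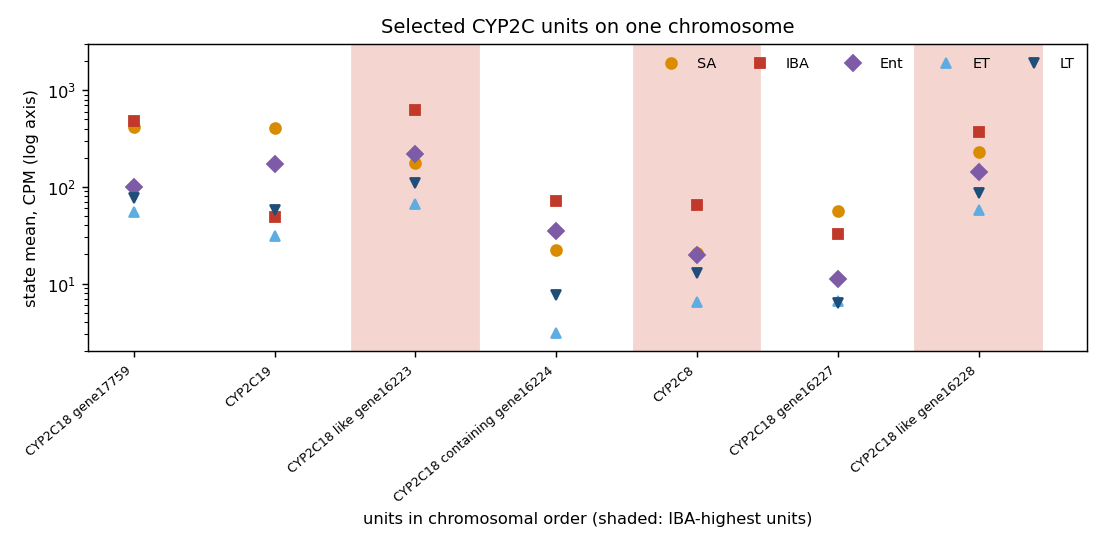
State means in CPM (log axis) of 7 units of the CYP2C run in their order on chromosome 1, with the 3 IBA-highest units among them shaded. IBA (red squares) is the highest state in the shaded units and lies below SA (orange circles) in CYP2C19, with 48.7 against 402 CPM.

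UGT2A1 and UGT2B4_gene15926, which attach glucuronic acid to steroids, bile acids and drugs, are neighbours on chromosome 14. UGT2A1 stood at 99.1, 106 and 115 CPM in the IBA livers, against 73.2, 58.4 and 70.6 in SA, 47.9, 31.7 and 22.4 in Ent, 24.3, 17.4 and 21.95 in ET and 22.9 and 15.8 in LT. For UGT2A1 the SA livers came next to IBA, and it fell from SA to Ent (log2 change -1.07, SE 0.26, edgeR adjusted p = 0.012). UGT2B4_gene15926 averaged 245 ± 47.7 CPM in IBA, 150.4 ± 34.8 in SA and 32.5 ± 10.4 in early torpor (SD, n = 3 each) and fell from Ent to ET (log2 change -1.85, SE 0.33, edgeR adjusted p = 0.0019). UGT2 copies are close in sequence and carry the same uncertainty as the CYP2C units. The drug metabolism and transport list, 12 of 34 with a unit, placed CYP2C8 among the 146, and 4 of the 10 listed genes outside the 146 were called higher in IBA than in the mean of the other states and 0 lower, with a median of 0.14 (background 23.9% higher and 21.1% lower). UGT2B15 had the largest of these differences (1.11, edgeR adjusted p = 0.0026), followed by the organic anion transporter Slco1a2 (0.72, adjusted p = 0.0043).

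Fatty acids are the main fuel of the hibernation season, and the list on fatty acid oxidation and the peroxisome had 32 of 49 genes with a unit, with Crot, Elovl2, Acad10 and Pex7 among the 146. Crot encodes carnitine octanoyltransferase, which hands fatty acids shortened in the peroxisome on to carnitine. Crot stood at 520.0, 591 and 681 CPM in the IBA livers, against 126, 200.3 and 84.0 in SA, 371, 264 and 222 in Ent, 80.1, 204 and 197 in ET and 96.7 and 138 in LT. Ent came next to IBA for Crot, and SA, ET and LT overlapped. The change of Crot from SA to Ent was 0.998 (SE 0.35, edgeR adjusted p = 0.055) and from Ent to ET -0.90 (SE 0.35, edgeR adjusted p = 0.067), neither of them called, while DESeq2 called both (adjusted p = 0.022 and 0.037). Elovl2 elongates very long chain polyunsaturated fatty acids. Elovl2 had 219.8, 147 and 176 CPM in IBA, while SA gave 55.0, 29.6 and 57.2, Ent 49.9, 97.2 and 98.1, ET 27.6, 31.7 and 50.3 and LT 48.5 and 71.5. SA and ET livers overlapped for Elovl2, and the change from SA to cold was -0.17 (SE 0.29, edgeR adjusted p = 0.64). Elovl2 fell from Ent to ET (log2 change -1.21, SE 0.32, edgeR adjusted p = 0.015), a call lost without Ent replicate 2, ET replicate 1 or ET replicate 2 (adjusted p = 0.051, 0.058 and 0.05). Acad10, of the acyl-CoA dehydrogenase family, averaged 54.4 ± 6.46 CPM in IBA, 29.3 ± 3.92 in SA and 39.6 ± 6.08 in Ent (SD, n = 3 each) and fell from Ent to ET (log2 change -0.66, SE 0.17, edgeR adjusted p = 0.011). Pex7, the receptor that brings enzymes with the second type of targeting signal into the peroxisome, was at 53.0 ± 5.49 CPM in IBA and 42.4 ± 3.03 in SA (SD, n = 3 each) and changed by -0.84 (SE 0.20, edgeR adjusted p = 0.0032) from SA to cold. Of the 28 listed genes outside the 146, 9 were called higher in IBA than in the mean of the other states and 1 lower. Their median was 0.15. All single-gene units, the 146 included, gave 23.9% higher and 21.1% lower, and the difference was not tested. Fgf21, a liver hormone of fasting, read 2.55 in that contrast (edgeR adjusted p = 0.0054) with state means of 66.9 CPM in IBA and 39.0 in Ent with an SD of 55.6 over 3 livers, while the highest liver outside IBA, at 103 CPM, was above every IBA liver, and the desaturase Fads1 read 1.77 (adjusted p = 0.00019).

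Other units of lipid and amino acid metabolism among the 146, named after their values were seen, were Eci2, an isomerase of unsaturated fatty acid oxidation, Bdh1, which interconverts ketone bodies, Bbox1, the last enzyme of carnitine synthesis, Hacd3, a dehydratase of fatty acid elongation, Acbd5, an acyl-CoA binding protein of the peroxisome, and Glud1, glutamate dehydrogenase. Their excess in IBA was 1.53, 1.64, 1.52, 1.505, 0.99 and 1.21 log2 units. Eci2 averaged 565 ± 63.6 CPM in IBA, 368 ± 61.7 in SA, 291 ± 61.6 in Ent and 144 ± 51.4 in the ET livers (SD, n = 3 each) and fell from Ent to ET (log2 change -1.08, SE 0.26, edgeR adjusted p = 0.0083). Hacd3 (log2 change -0.84, SE 0.18, edgeR adjusted p = 0.0079) and Glud1 (log2 change -0.81, SE 0.19, edgeR adjusted p = 0.011) fell from SA to Ent. Faxdc2, which carries a fatty acid hydroxylase domain, had an excess of 2.21 log2 units. Faxdc2 read 60.2, 33.9 and 94.5 CPM in SA, 165, 107 and 151 in IBA, 57.8, 58.3 and 42.4 in Ent, 16.8, 10.8 and 15.8 in ET and 12.9 and 21.2 in LT. The highest SA liver came near the lowest IBA liver for Faxdc2, at 107 CPM for the IBA liver and 94.5 for the SA liver, and the change from SA to cold was -2.15 (SE 0.30, edgeR adjusted p = 7.3e-05).

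Signalling units among the 146 included Adcy1, an adenylate cyclase stimulated by calcium and calmodulin that makes cyclic AMP (chr2:101099306-101265804, plus strand). Adcy1 stood at 139, 128 and 121 CPM in the IBA livers, against 99.7, 42.8 and 98.6 in SA, 46.0, 41.0 and 39.9 in Ent, 8.01, 4.57 and 9.43 in ET and 7.83 and 9.73 in LT. SA replicates 1 and 3 came near the IBA level while SA replicate 2 was as low as Ent, and the torpid livers did not overlap with any other. Adcy1 fell from Ent to ET (log2 change -2.56, SE 0.33, edgeR adjusted p = 0.00044) and from SA to cold (log2 change -3.46, SE 0.28, edgeR adjusted p = 2.1e-06), and its fall from SA to Ent (-1.02, edgeR adjusted p = 0.026) was not called without SA 1, SA 3, Ent 2 or Ent 3 (adjusted p = 0.079 to 0.092). The unnamed unit G16888 lies inside Adcy1 on the opposite strand and was also among the 146, with 493 ± 127 CPM in IBA and 280.2 ± 172 in SA (SD, n = 3 each). The strand setting of the counting is not given in the sources used here, while the paper calls its GRO-seq reads strand-specific. Adcy1 spans all of G16888 but had fewer counts, with 129 ± 9.06 CPM in IBA. Counting blind to strand could not give the inner unit more reads than the outer one. Dusp6, a phosphatase that switches off ERK after growth-factor signals, was the only unit of the growth-factor and early-response list among the 146 (17 of 36 with a unit). Dusp6 had 197, 145 and 169 CPM in IBA, while SA gave 99.7, 139 and 92.3, Ent 81.2, 79.9 and 65.6, ET 14.4, 12.04 and 27.1 and LT 25.3 and 17.9. The highest SA liver reached almost the lowest IBA liver, and the 5 torpid livers were far below all others. Dusp6 fell from Ent to ET (log2 change -2.14, SE 0.28, edgeR adjusted p = 0.00048) and from SA to cold (log2 change -2.61, SE 0.24, edgeR adjusted p = 4.3e-06). In this list 5 of the 16 listed genes outside the 146 were called higher in IBA than in the mean of the other states and 3 lower, with a median of 0.06 (background 23.9% higher and 21.1% lower), and the largest were the immediate-early factors Egr1 (2.83, edgeR adjusted p = 0.0012) and Myc (1.41, adjusted p = 0.0035), each with an SA or Ent liver above its lowest IBA liver.

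On the list of FoxO, insulin and mTOR signalling (22 of 35 with a unit) Arrdc4, Deptor and Pid1 were among the 146. Arrdc4, an arrestin-like protein that lowers glucose uptake, averaged 118 ± 11.1 CPM in IBA, 74.3 ± 18.3 in SA and 81.6 ± 15.4 in Ent (SD, n = 3 each) and fell from Ent to ET (log2 change -1.15, SE 0.24, edgeR adjusted p = 0.0046). Deptor, an inhibitor of the mTOR kinase, averaged 187 ± 23.8 CPM in IBA and 93.2 ± 32.8 in SA (SD, n = 3 each), and its change from SA to cold of -0.54 (edgeR adjusted p = 0.033) was not called without SA 1, SA 3, Ent 2, ET 2 or LT 1 (adjusted p = 0.055 to 0.25). Pid1, which dampens insulin signalling, averaged 1445 ± 237 CPM in IBA, 856 ± 191 in SA, 867 ± 28.1 in Ent and 495 ± 70.1 in the ET livers (SD, n = 3 each) and fell from Ent to ET (log2 change -0.86, SE 0.19, edgeR adjusted p = 0.0062). Of the list, 6 of the 19 listed genes outside the 146 were called higher in IBA than in the mean of the other states and 2 lower, with a median of 0.08 (background 23.9% higher and 21.1% lower). Igfbp1, a hepatic binding protein that restrains insulin-like growth factors, and Arrdc3, a relative of Arrdc4, had the largest differences (3.02 and 2.73, edgeR adjusted p = 0.00054 and 0.00031), and both had an SA liver above their lowest IBA liver. Grb14, an adaptor that inhibits the insulin receptor, was also one of the 146. Grb14 read 301, 292 and 338 CPM in SA, 554, 458 and 505 in IBA, 262, 227 and 240.5 in Ent, 104, 176 and 161 in ET and 152 and 143 in LT. For Grb14 every IBA liver was above every SA liver, every SA liver above every Ent liver, and every Ent liver above every torpid liver. It fell from Ent to ET (log2 change -0.79, SE 0.17, edgeR adjusted p = 0.005).

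Transcription factors on the list of hepatocyte factors and nuclear receptors (18 of 33 with a unit) gave Hnf4g, Nr5a2 and Sfmbt2. Hnf4g is a nuclear receptor related to the hepatocyte factor HNF4 alpha. Hnf4g stood at 167, 142 and 157 CPM in the IBA livers, against 56.6, 44.97 and 65.5 in SA, 126, 105 and 142 in Ent, 68.8, 140.1 and 93.0 in ET and 60.9 and 85.8 in LT. SA and LT livers overlapped at the low end for Hnf4g, Ent livers came close to IBA, and ET livers spread widely. Hnf4g rose from SA to Ent by 1.07 (SE 0.24, edgeR adjusted p = 0.0089), and its change from SA to cold was 0.48 (SE 0.22, edgeR adjusted p = 0.078). Nr5a2, a nuclear receptor that drives bile acid synthesis genes, averaged 646 ± 36.0 CPM in IBA, 458 ± 54.4 in SA, 405 ± 15.3 in Ent and 272 ± 38.9 in the ET livers (SD, n = 3 each). It fell from Ent to ET (log2 change -0.63, SE 0.15, edgeR adjusted p = 0.0074) and from SA to cold (log2 change -0.85, SE 0.13, edgeR adjusted p = 0.00013). Sfmbt2, a polycomb group protein, averaged 686 ± 73.3 CPM in IBA and 399 ± 74.0 in SA (SD, n = 3 each) and was called in none of the 4 contrasts with all libraries, although its fall from Ent to ET was called without SA 2, SA 3, LT 1 or LT 3 (adjusted p = 0.029 to 0.05). In the list, 5 of the 15 listed genes outside the 146 were called higher in IBA than in the mean of the other states and 3 lower, with a median of 0.33 (background 23.9% higher and 21.1% lower), with Onecut1 at 1.24 (edgeR adjusted p = 0.00071) and Onecut2 at 0.58 (adjusted p = 0.0068).

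Hnf4g was 1 of 7 units that rose from SA to Ent, with ENSSTOG00000034399, Slc2a9, G26625, Dapk2 and, named after their values were seen, G3590 and COLCA1_containing, whose calls were lost without SA 3 (adjusted p = 0.099 and 0.14) among other libraries. ENSSTOG00000034399, which has no gene symbol, showed the largest rise (chr5:153830113-153845543, minus strand). ENSSTOG00000034399 had 71.5, 61.9 and 72.7 CPM in IBA, while SA gave 4.72, 5.39 and 7.203, Ent 28.8, 49.8 and 31.9, ET 7.42, 11.6 and 8.75 and LT 8.13 and 8.0004. The torpid livers were just above the SA livers, and Ent livers lay between them and IBA. The rise from SA to Ent was 2.55 (SE 0.25, edgeR adjusted p = 0.00028) and the fall from Ent to ET -2.04 (SE 0.24, edgeR adjusted p = 0.00029) on the log2 scale. Slc2a9 encodes a transporter of urate and sugars. Slc2a9 stood at 198, 287 and 217 CPM in the IBA livers, against 62.4, 90.5 and 57.0 in SA, 167, 191 and 154 in Ent, 196, 121 and 154 in ET and 178 and 179 in LT. All 8 Ent, ET and LT livers were above every SA liver and below every IBA liver. Slc2a9 rose from SA to Ent by 1.21 (SE 0.21, edgeR adjusted p = 0.0027) and was higher in the cold states than in SA by 1.14 (SE 0.20, edgeR adjusted p = 0.00032), and it had no call from Ent to ET (-0.16, adjusted p = 0.58). Dapk2, a kinase regulated by calcium and calmodulin, rose from SA to Ent by 0.78 (SE 0.17, edgeR adjusted p = 0.0074). Dapk2 read 180.3, 136 and 206 CPM in SA, 439, 408 and 456 in IBA, 363, 274 and 314 in Ent, 220.0, 213 and 259 in ET and 299 and 327 in LT. The lowest IBA liver of Dapk2 was above the highest Ent liver (408 and 363 CPM), and its higher level in the cold states than in SA (0.49, edgeR adjusted p = 0.015) was not called without SA replicate 2 (adjusted p = 0.066). LOC110598791 was the remaining unit higher in the cold states (0.61, edgeR adjusted p = 0.011), a call also lost without SA replicate 2 (adjusted p = 0.051), while G26625 (1.14 from SA to Ent, adjusted p = 0.04) lost its call when any of 10 libraries was left out (adjusted p up to 0.13 without Ent 1).

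At the other end stood units that fell from SA to Ent, in some of which SA was nearly as high as IBA. LOC101959938, which has no gene symbol, had the largest fall from SA to Ent. LOC101959938 stood at 325, 347 and 359.8 CPM in the IBA livers, against 311, 271 and 315 in SA, 101, 68.1 and 78.8 in Ent, 41.4, 52.9 and 38.4 in ET and 35.8 and 56.2 in LT. IBA and SA livers were close and far above the rest. LOC101959938 fell from SA to Ent (log2 change -1.94, SE 0.19, edgeR adjusted p = 0.00028) and further from Ent to ET (log2 change -0.96, SE 0.19, edgeR adjusted p = 0.0037). Oma1, a protease of the inner mitochondrial membrane, fell from SA to Ent (log2 change -0.997, SE 0.14, edgeR adjusted p = 0.0013) and from Ent to ET (log2 change -1.13, SE 0.15, edgeR adjusted p = 0.00048), from 73.4 ± 6.43 CPM in IBA and 60.0 ± 1.63 in SA to 15.1 ± 1.91 in ET (SD, n = 3 each). The 14 units with a fall in all 3 of these contrasts, most of them named after their values were seen, were G8002, Adcy1, LOC101959938, MAP2K6_like, CYP2C18_like_gene16228, Oma1, Gamt, which makes creatine, Mkks, Stat5b, a transcription factor downstream of growth hormone, Ercc6, B4galt1, Cfdp1, Guf1 and Dctd. The fall from SA to Ent was called with each library left out in turn for 4 of the 14 (LOC101959938, Oma1, Cfdp1 and Guf1), and was lost on leaving out at least 1 library for the other 10. G8002 had the largest excess of all (3.08). G8002 had 96.4, 108 and 81.5 CPM in IBA, while SA gave 73.7, 46.9 and 59.0, Ent 45.1, 31.0 and 13.6, ET 3.26, 1.66 and 3.09 and LT 1.69 and 1.88. In the torpid livers G8002 was at 1.66 to 3.26 CPM. It fell from Ent to ET (log2 change -3.50, SE 0.42, edgeR adjusted p = 0.00032), and its fall from SA to Ent (-1.08, edgeR adjusted p = 0.04) was not called when any of 10 libraries was left out (adjusted p up to 0.11 without SA 1). G5841 and G33278, unnamed units like G8002, fell from Ent to ET as well, G5841 (log2 change -3.08, SE 0.34, edgeR adjusted p = 0.00027) and G33278 (log2 change -2.91, SE 0.30, edgeR adjusted p = 0.00027). Names without a gene symbol (a G number, ENSSTOG or LOC) made up 25 of the 146 (17.1%), against 6.57% of all single-gene units.

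**Figure D4:**
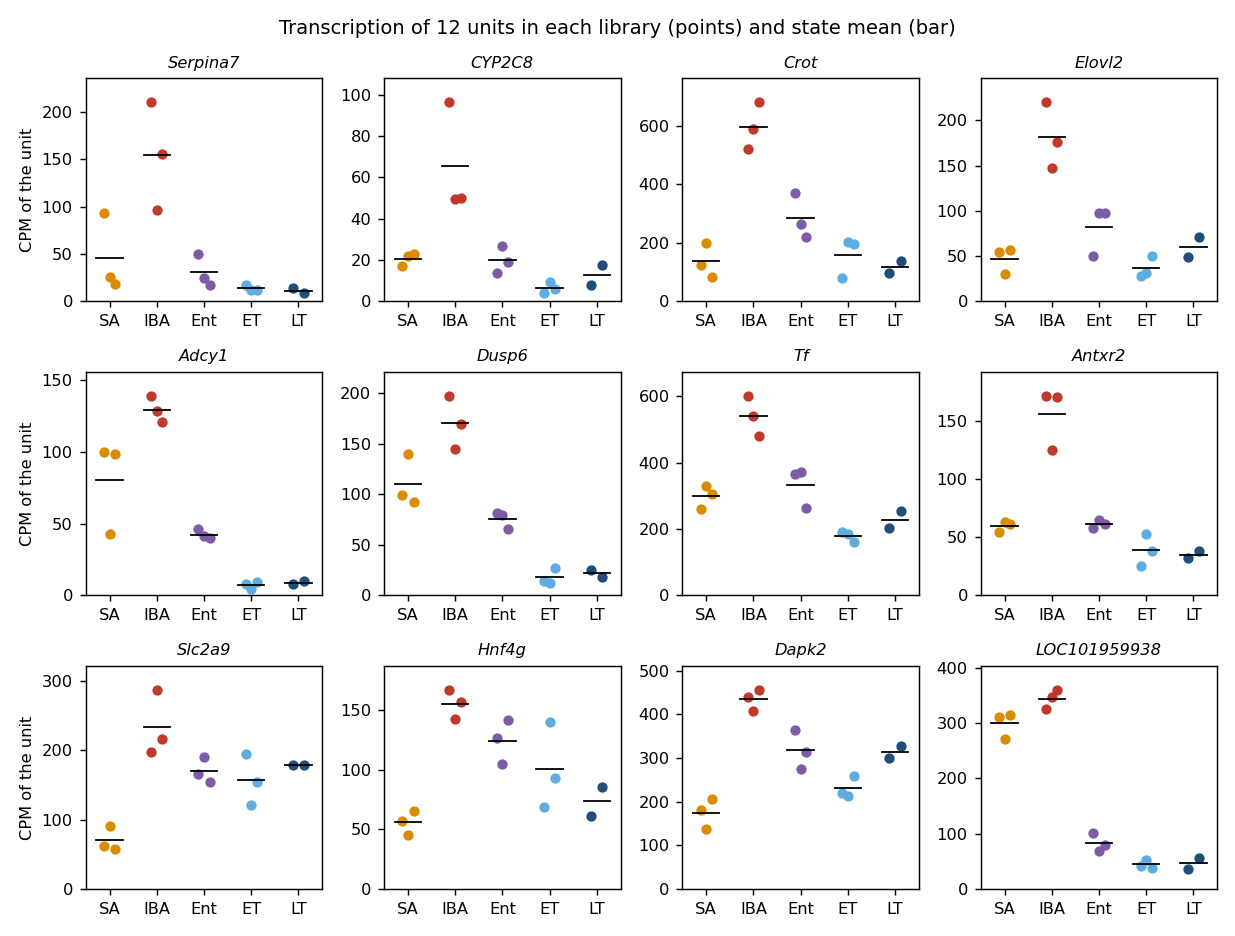
CPM of 12 of the 146 units in each library (points) with the state mean (bar), on axes that start at 0 and differ between panels. Within a panel the state next to IBA by its mean is, for example, SA for LOC101959938 and Adcy1 and Ent for Crot and Hnf4g. SA is the lowest state by its mean for Slc2a9 (69.9 CPM), Hnf4g (55.7) and Dapk2 (174).

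Membrane and cytoskeletal units came from the list on adhesion, junctions and actin (23 of 40 with a unit), with Mylk, Antxr2 and Gpc4 among the 146. Antxr2 encodes a receptor for extracellular matrix and anthrax toxin. Antxr2 read 54.1, 63.3 and 61.8 CPM in SA, 172, 126 and 171 in IBA, 57.7, 65.2 and 61.3 in Ent, 25.2, 52.5 and 37.9 in ET and 31.8 and 38.0 in LT. IBA livers were at least 126 CPM and no other liver passed 65.2 CPM, while SA and Ent livers overlapped (log2 change -0.04, SE 0.21). Antxr2 fell from SA to cold (log2 change -0.84, SE 0.19, edgeR adjusted p = 0.0021). Mylk, myosin light chain kinase, averaged 326 ± 19.5 CPM in IBA, 175 ± 38.2 in SA and 203 ± 24.9 in Ent (SD, n = 3 each), and its fall from Ent to ET (-0.81, edgeR adjusted p = 0.026) was not called without Ent 2, Ent 3, ET 2 or ET 3 (adjusted p = 0.061 to 0.091). Gpc4, a heparan sulfate proteoglycan of the cell surface, averaged 124 ± 15.4 CPM in IBA and 52.6 ± 2.02 in SA (SD, n = 3 each), and its fall from Ent to ET (-0.63, edgeR adjusted p = 0.013) had an adjusted p of 0.051 without ET 1. Of this list, 5 of the 19 listed genes outside the 146 were called higher in IBA than in the mean of the other states and 4 lower, with a median of 0.22 (background 23.9% higher and 21.1% lower), with the tight junction genes Cldn1 (2.48, edgeR adjusted p = 3.2e-05) and Cldn3 (2.08, adjusted p = 4.4e-05) having the largest differences among those called higher. Endoplasmic reticulum folding and degradation (24 of 36 with a unit) was represented by Erlin1, which takes part in degrading calcium channels of that membrane, at 129.6 ± 5.40 CPM in IBA and 74.0 ± 3.69 in SA (SD, n = 3 each), and 5 of the 23 listed genes outside the 146 were called higher in IBA than in the mean of the other states and 3 lower, with a median of 0.06 (background 23.9% higher and 21.1% lower), Xbp1 (1.16, edgeR adjusted p = 0.0027) and Pdia4 (0.75, adjusted p = 0.018) having the largest differences among those called higher. Ribosome biogenesis (14 of 50 with a unit) gave Emg1, which modifies the RNA of the small ribosomal subunit, at 35.3 ± 2.91 CPM in IBA and 24.6 ± 2.97 in SA (SD, n = 3 each), falling from Ent to ET (log2 change -1.28, SE 0.27, edgeR adjusted p = 0.0044), and 2 of the 13 listed genes outside the 146 were called higher in IBA than in the mean of the other states and 3 lower, with a median of -0.11 (background 23.9% higher and 21.1% lower), the higher ones being Polr1a (0.65, edgeR adjusted p = 0.0093) and Bms1 (0.63, adjusted p = 0.0034).

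Among the remaining units with the largest excess were Ncmap (2.36), a membrane protein of noncompact myelin, Kcnn2 (1.91), a potassium channel opened by calcium, AOC3_gene5611 (1.76), a copper amine oxidase of the cell surface, CUNH11orf80 (2.04) and Fam159a (1.95). Ncmap had 227, 273 and 221 CPM in IBA, while SA gave 140.3, 53.6 and 122, Ent 93.0, 106 and 49.7, ET 20.6, 24.7 and 25.6 and LT 18.6 and 30.9. Ncmap was highest in IBA, with SA livers spread between 53.6 and 140.3 CPM, and it fell from Ent to ET (log2 change -1.86, SE 0.35, edgeR adjusted p = 0.0025). Kcnn2 read 379, 96.4 and 301 CPM in SA, 669, 493 and 403 in IBA, 164, 166 and 177 in Ent, 63.3, 94.6 and 103 in ET and 83.3 and 130.4 in LT. The lowest IBA liver and the highest SA liver were close for Kcnn2, whose change from SA to Ent was -0.71 (SE 0.39, edgeR adjusted p = 0.2) with all libraries and was called without SA replicate 2 (-1.11, adjusted p = 0.01). AOC3_gene5611 fell from Ent to ET (log2 change -1.95, SE 0.33, edgeR adjusted p = 0.0014) and CUNH11orf80 (log2 change -1.22, SE 0.29, edgeR adjusted p = 0.0083). Fam159a rests on the least even IBA animals. Fam159a stood at 53.6, 38.0 and 16.8 CPM in the IBA livers, against 15.9, 15.3 and 12.5 in SA, 10.9, 10.6 and 8.01 in Ent, 2.37, 7.68 and 4.80 in ET and 4.76 and 5.65 in LT. Its lowest IBA liver was just above its highest SA liver, and its change from SA to cold was -1.66 (SE 0.38, edgeR adjusted p = 0.0022). Slc2a2, the glucose transporter of hepatocytes, and Kng1, kininogen, named after their values were seen, averaged 1546 ± 117 and 1239 ± 21.0 CPM in IBA against 999.9 ± 305 and 779 ± 348 in SA (SD, n = 3 each). Slc2a2 fell from Ent to ET (log2 change -1.37, SE 0.25, edgeR adjusted p = 0.002), and Kng1 fell from SA to cold (log2 change -0.99, SE 0.24, edgeR adjusted p = 0.0035).

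The 146 units were spread over 17 chromosomes or scaffolds, with 20 on chromosome 1, 16 on chromosome 7 and 14 each on chromosomes 2 and 3. They had a median length of 48234 nt, against 36217 nt for all single-gene units, and 26.0% were 100 kb or longer, against 17.1%. Their IBA means had a median of 129.5 CPM, against 70.7 for all single-gene units. The part of read depth in the difference of length was not tested. In 10 places a unit and the next unit on the chromosome were both among the 146. Slx4ip and Mkks stood head to head on chromosome 5, on opposite strands with 1521 nt between them, and over the 11 libraries outside IBA their log2(CPM + 1) values had r = 0.91, a description of libraries that share depth and state. LOC110598791 and Glcci1, also head to head with 1322 nt between them, had r = -0.33 over the same 11 libraries. LOC110598791 was higher in the cold states than in SA, while Glcci1 fell (log2 change -0.72, SE 0.19, edgeR adjusted p = 0.0062). UGT2A1 and UGT2B4_gene15926 were 300999 nt apart (r = 0.82). Other neighbours were Cmas, which activates sialic acid, with Abcc9, a subunit of potassium channels, Sntb1 with Deptor, Fign with Grb14, Itih2 with Sfmbt2, and Adcy1 with G16888, and their r ranged from 0.15 to 0.84. Just inside the limit of 0.7 were Farp1 (0.71), Sntb1 (0.72), Pde8b (0.72), Cep85l (0.72) and Senp7 (0.72). Just outside, with no overlap but a smaller excess, were Elp3 (0.69), Prtfdc1 (0.69), SETDB2_like (0.68), Ldah (0.68) and Mrnip (0.68).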

How the data were processed

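The authors trimmed the reads with cutadapt, aligned them to HiC_Itri_2 with BWA, extended gene bodies at their 3′ end where the GRO-seq signal of pooled libraries went further, left out the start of each, merged overlapping genes and counted uniquely aligned reads with featureCounts; versions and strand setting are not given in the sources used here. The deposited values are raw counts per unit, with the unit length, and were not normalized by the authors. One LT library has no column and was not used here. The labels put 15 samples in 5 states, and 14 have a column.

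Members were taken by the rule above, with column sums as library sizes and a pseudocount of 1. The members and the gene lists were chosen with earlier results of these data known. The counts of the 6324 units entered 1 quasi-likelihood fit on the 5 states in edgeR 4.0.16 under R 4.3.3, after TMM scaling, with Benjamini-Hochberg adjustment across the whole table. No unit was filtered. Each SE is the size of the log2 change divided by the square root of the F statistic of its edgeR test. The script was tested on simulated data with known changes. Libraries of 3713883 to 8884763 counts set the precision of a unit. The 9 pathway lists and 6 marker lists were matched to single-gene units by symbol, and 103 of the 146 names are in the RefSeq gene table of mIctTri1.hap1, which was used for names only. Sequences and a few units are not reported here.

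Genes were named by a rule: the 15 members with a symbol and the 3 others with the largest excess, every member of a list, the 3 largest called changes in each direction of each contrast, the 5 units on each side of the limit, adjacent members, and up to 2 other genes per list that were called higher in IBA. Genes outside it are marked as chosen after their values were seen. Alternatives were DESeq2 1.42.0, upper-quartile scaling, other pseudocounts and limits, a minimum of 10 counts, an adjusted p of 0.001, a fit without IBA, each library left out, a season term, and a replicate block. Python 3.11.15, pandas 2.3.3, numpy 2.4.6 and matplotlib 3.10.9 were used.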

Additional observations from a re-analysis of the deposited data

Results flagged for a closer look

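Units that merge several overlapping genes were left out of the choice above, since their counts cannot be divided among the genes. The same limits were met by 28 of the 1619 merged units (1.73%), and these were noted because they lie outside the units compared in the report. The largest excess was 2.98 log2 units for G4250:G4257:Serpina7. TF:Srprb had state means of 6917 CPM in IBA, 3859 in SA and 1164 in ET. Hrg:Fetub:Ahsg, which joins 3 secreted proteins of the liver, averaged 2811 CPM in IBA and 1625 in SA. Rdh16:Sdr9c7, of the retinol dehydrogenase family, averaged 477 CPM in IBA and 288 in SA, and Creb3l3:G19489, with a transcription factor of the fasting liver, 432 and 248. Which gene of a merged unit gave its counts was not tested, and with at most 3 libraries a state no library was tested as an outlier.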

How the results depend on the processing

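The number of IBA-highest units was 153 by TMM library sizes, of which 126 were among the 146, 163 by upper-quartile sizes (139 shared), 144 to 147 with other pseudocounts, 145 with at least 10 counts in every library, 193 with a limit of 0.5 and 93 with a limit of 1. Leaving out each library in turn gave 141 to 199. At an adjusted p of 0.001 the calls from SA to Ent were 1 lower and 1 higher, from Ent to ET 12 lower, and from SA to cold 65 lower and 1 higher, and of the listed genes outside the 146 there were 16 in place of 47 higher in IBA. DESeq2 called 1 unit lower from ET to LT. From SA to Ent, 12 were lower by upper-quartile normalization, and 10 lower and 4 higher in the fit without the IBA libraries. With each library left out in turn, the calls from SA to Ent were 8 to 27 lower and 4 to 8 higher, from Ent to ET 69 to 94 lower and 0 higher, from SA to cold 104 to 111 lower and 2 to 5 higher, and from ET to LT 0, and the listed genes higher in IBA 38 to 55. With season as a covariate 23 were lower and 7 higher from SA to Ent, and 90 lower and 2 higher from SA to LT, the part of the cold that can be separated from its season.

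Replicate numbers are shared by the states in the labels but nothing says that they mark a common animal or day. The deviations of same-numbered libraries from their state means had correlations of -0.29 to 0.28 (median 0.04), against -0.32 to 0.40 for other pairs, so that the numbers were not taken as pairing. With the replicate block there were 18 lower and 6 higher from SA to Ent, 84 lower from Ent to ET, and 110 lower and 3 higher from SA to cold. With 2 or 3 animals a state and 8 reads in the shallowest value, small changes of weakly transcribed units were not detectable.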

Other observations

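The genes in this paragraph were picked after their values were seen, to show what else the 146 units held. Bmpr2, a receptor for bone morphogenetic proteins, averaged 863 ± 125 CPM in IBA and 605 ± 90.3 in SA (SD, n = 3 each) and fell from SA to cold (log2 change -1.06, SE 0.21, edgeR adjusted p = 0.001). Ets1, a transcription factor, fell from Ent to ET (log2 change -0.84, SE 0.18, edgeR adjusted p = 0.0055), as did Rnd3, a small GTPase that loosens actin fibres (log2 change -0.99, SE 0.25, edgeR adjusted p = 0.01). Cdon, a co-receptor of hedgehog signals, fell already from SA to Ent (log2 change -0.95, SE 0.31, edgeR adjusted p = 0.04), a call lost without SA 1, SA 3, IBA 3, Ent 2 or Ent 3 (adjusted p = 0.057 to 0.13). Stat5b, which carries the growth hormone signal to the nucleus, averaged 124 ± 7.00 CPM in IBA, 89.1 ± 20.2 in SA and 63.4 ± 9.45 in Ent (SD, n = 3 each). Gnai1, an inhibitory G protein subunit for adenylate cyclase, fell from SA to cold (log2 change -0.65, SE 0.16, edgeR adjusted p = 0.0041), a call lost with season as a covariate (SA against LT, adjusted p = 0.057). Among enzymes of membranes and glycans, Sgms1, a sphingomyelin synthase, stood at 634 ± 40.4 CPM in IBA and 455 ± 77.3 in SA, and Ust, which sulfates chondroitin and dermatan chains, at 553 ± 38.3 and 265 ± 137 (SD, n = 3 each). Both fell from SA to cold, Sgms1 (log2 change -0.76, SE 0.13, edgeR adjusted p = 0.00039) and Ust (log2 change -1.003, SE 0.36, edgeR adjusted p = 0.03), and the call of Ust was lost without SA 2 (log2 change -0.60, adjusted p = 0.19), SA 3, ET 2, ET 3 or LT 1, and with season as a covariate (SA against LT, log2 change -0.36, adjusted p = 0.58). Mitochondrial units included Nsun3, which modifies a mitochondrial transfer RNA and fell from Ent to ET (log2 change -0.90, SE 0.14, edgeR adjusted p = 0.0011), and Txnrd2, a thioredoxin reductase that was called in none of the 4 contrasts (103 ± 11.4 CPM in IBA, 60.1 ± 10.8 in SA, SD, n = 3 each). Atg4c, a protease of autophagy, fell from Ent to ET (log2 change -1.03, SE 0.21, edgeR adjusted p = 0.0036), and Ctsc, a lysosomal peptidase, fell from SA to cold (log2 change -0.64, SE 0.15, edgeR adjusted p = 0.0032). Of the transporters, Slc7a7, which exchanges cationic amino acids, fell from Ent to ET (log2 change -1.03, SE 0.18, edgeR adjusted p = 0.0016), while Slc16a12, a creatine transporter, was called in none of the contrasts. Slc16a12 read 250.4, 132 and 125 CPM in SA, 566, 289 and 262 in IBA, 171, 121 and 258 in Ent, 106, 77.6 and 158 in ET and 153 and 155 in LT. The SA, Ent, ET and LT livers of Slc16a12 overlapped. Abca6, an ABC transporter of the lipid subfamily, and Tspan12, a tetraspanin, were likewise called in none with all libraries and averaged 296 ± 55.5 and 485 ± 46.9 CPM in IBA against 118 ± 32.1 and 236 ± 46.1 in SA (SD, n = 3 each).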
